A study of Bos taurus with 2 samples.

Results

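Collagens, laminins and integrins were examined in 1 pool of bovine IVF embryos injected with CDKN1C siRNA and 1 pool of sham-injected embryos (called siRNA embryos and sham embryos). Sham embryos were punctured with the injection needle but received no siRNA, so the presence of siRNA and the loss of its target cannot be told apart in this comparison. The comparison asks how the transcriptome of the embryo differs when CDKN1C, a cell-cycle inhibitor, is silenced at the zygote stage. The study took blastocysts for RNA, but the stage, day, siRNA dose and number of embryos of these sequenced pools are not stated separately, and a non-injected pool and a control siRNA against GFP were not analysed here.

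Members were taken by gene symbol, with earlier results of these data known. They were the laminin alpha, beta and gamma chains, the integrin alpha and beta chains, and the 5 genes FN1, NID1, HSPG2, AGRN and DAG1. The collagen chains were taken other than 1 symbol that is left out, so counts of collagens do not cover the whole family. This gave 78 of 21209 symbols, made up of 38 collagens, 11 laminins, 24 integrins and these 5 genes.

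Basement membranes are thin sheets of matrix on which epithelia rest. Laminin trimers, each of an alpha, a beta and a gamma chain, polymerise into one network, type IV collagen forms a second network, and nidogen and the proteoglycans perlecan and agrin link them. Integrins, receptors of 1 alpha and 1 beta chain, hold cells to laminin, collagen or fibronectin and connect them to actin, and dystroglycan is another laminin receptor. In the blastocyst of mammals, trophectoderm and primitive endoderm lay down laminin and type IV collagen early, and fibrillar collagens are typical of later mesenchyme.

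Expression was measured as FPKM, fragments scaled to the length of the transcript and the number of mapped fragments, here with upper-quartile scaling. Ratios between genes assume that fragments cover each transcript evenly, which was not checked for this amplified RNA. Differences between pools depend on how the pools were scaled. CDKN1C, the targeted gene, was 14.6 FPKM in siRNA embryos and 49.5 FPKM in sham embryos. Markers of trophectoderm were present, with 11 of 11 at a mean of 1 FPKM or more and KRT18 at 5389 FPKM in siRNA embryos and 11245 FPKM in sham embryos. Of the markers of the inner cell mass, 8 of 10 reached that mean, and of those of hypoblast 4 of 10, namely GATA6, PDGFRA, HNF4A and APOE. GATA6 was 14.0 FPKM in siRNA embryos and 13.7 FPKM in sham embryos, while SOX17, SOX7 and TTR were listed at 0 in both pools. The summed FPKM of all loci was 1051057 in siRNA embryos and 1384061 in sham embryos. How many reads a value rests on is not known, but at low values the ratio of the pools clustered. Of 839 loci under 0.06 FPKM in both pools, 160 lay within 0.1 of a log2 ratio of -0.14. The positions for 2 reads against 1 held 60 each. The only points counted between them and this cluster, 0.3 above and 0.3 below it, held 20 each. If that cluster stands for equal reads, 1 read was worth 0.908 times as much FPKM in siRNA embryos as in sham embryos, and values of this size would rest on few reads. In pools of embryos, fewer cells of a type and less RNA per cell cannot be told apart. With 1 library per pool, no difference has a replicate check, an error or a p-value, and every difference compares these 2 libraries.

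Most members were at low values. Of the 78, 17 (21.8%) had a mean of 1 FPKM or more over both pools, against 37.6% of all symbols, and 14 (17.9%) were listed at 0 in both pools, against 25.6% of all symbols. The 4 families differed, with 4 of 38 collagens, 3 of 11 laminins, 7 of 24 integrins and 3 of the 5 single genes at that mean. All members together made up 277 FPKM in siRNA embryos and 264 FPKM in sham embryos, of which FN1 alone was 177 FPKM in siRNA embryos and 161 FPKM in sham embryos. Without FN1, the sums were 99.4 FPKM in siRNA embryos and 103 FPKM in sham embryos.

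The difference of a gene is given as log2 of the injected over the sham value after 1 FPKM was added to both, a scale that understates the change of low genes. None of the 17 members with a mean of 1 FPKM or more differed by 2-fold or more on this scale. Among all 7984 genes with that mean, 4.92% were at least 2-fold higher in siRNA embryos, 15.7% at least 2-fold lower, and 20.6% either. Differences of the members ran from -0.92 for COL18A1 to 0.84 for COL12A1, with a median of 0.13, against a median of -0.17 over all genes. Of the 17, 9 were above 0, against 41.7% of all genes. With the summed FPKM of the pools made equal, which moved the median of all genes to 0.16, COL12A1, ITGB1 and LAMB1 were at least 2-fold higher and no member 2-fold lower, beside 12.7% and 7.83% of all genes. All genes shifted as well, since 23.8% of the genes past 2-fold were higher in siRNA embryos as deposited, 61.8% at equal totals and 41.1% with the median difference set to 0. As a ratio of FPKM with nothing added, 1 member (COL12A1) was higher by 2-fold or more and 1 (COL18A1) lower by as much, beside 9.34% and 21.1% of all genes.

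**Figure D1:**
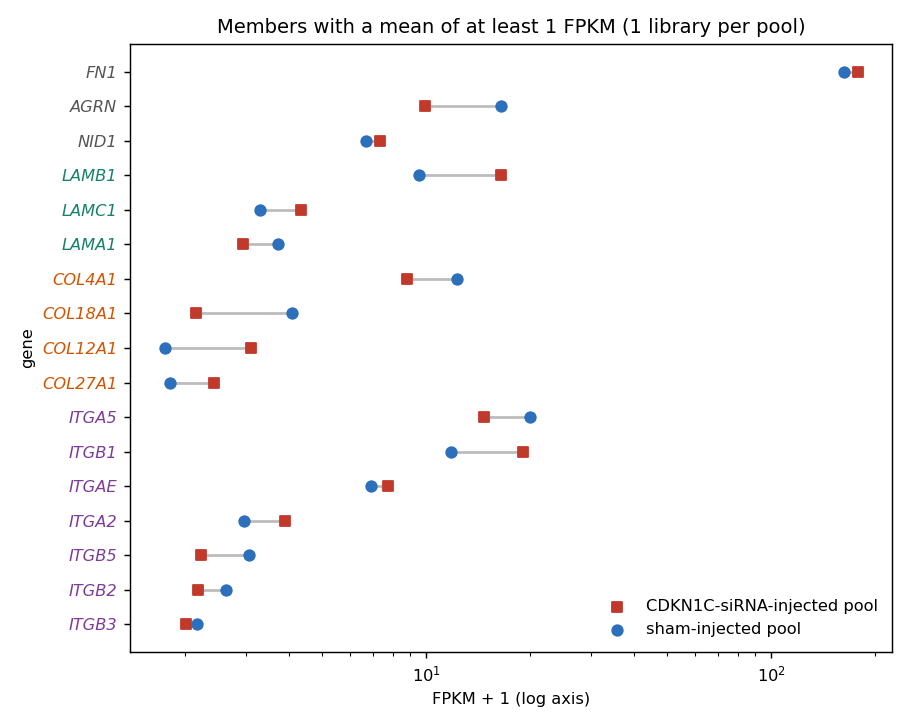
FPKM + 1 (horizontal, log axis) of the 17 members with a mean of 1 FPKM or more in the CDKN1C-siRNA-injected pool (red squares) and the sham-injected pool (blue circles), 1 library each; label colours mark single genes (grey), laminins (green), collagens (orange) and integrins (purple). FN1 lies far above the others at 177 FPKM in siRNA embryos and 161 FPKM in sham embryos, and the squares lie to either side of the circles.

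The laminins above 1 FPKM were the 3 chains of a single trimer. LAMB1, LAMC1 and LAMA1, which encode the beta 1, gamma 1 and alpha 1 chains of the laminin of the early embryo, were the only laminins with a mean of 1 FPKM or more. LAMB1 (chromosome 4 of bosTau7, 50671441 to 50748781) was 15.5 FPKM in siRNA embryos and 8.55 FPKM in sham embryos, a ratio of 1.81. LAMC1 (chromosome 16, 61660248 to 61695731) was 3.33 FPKM in siRNA embryos and 2.30 FPKM in sham embryos. The alpha chain went the other way, with LAMA1 (chromosome 24, 41054517 to 41178583) at 1.94 FPKM in siRNA embryos and 2.72 FPKM in sham embryos. Its difference on the log2 scale after adding 1 FPKM was -0.34, against -0.17 with the median difference set to 0 and -0.066 at equal totals. The beta 1 chain was thus the highest of the 3 in both pools, at 7.97 times the level of the alpha 1 chain in siRNA embryos and 3.14 times in sham embryos. Summed over all 11 laminins, the level was 21.0 FPKM in siRNA embryos and 14.2 FPKM in sham embryos, a ratio of 1.48 that LAMB1 carried for the most part.

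Other laminin chains were under 0.4 FPKM in both pools. LAMB2, the beta chain of muscle and kidney basement membranes, was 0.0985 FPKM in siRNA embryos and 0.375 FPKM in sham embryos. LAMA5, the alpha chain of most adult epithelial basement membranes, was 0.0247 FPKM in siRNA embryos and 0.0754 FPKM in sham embryos, and LAMA1 was 78.5 times as high in siRNA embryos and 36.1 times in sham embryos. LAMB3, a beta chain of skin, was 0.0527 FPKM in siRNA embryos and 0.110 FPKM in sham embryos. LAMC3 was listed at 0 in both pools, and LAMA2, LAMA3 and LAMA4 were at or under 0.0184 FPKM.

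Among the partners of laminin in basement membranes, nidogen and agrin were present and perlecan was low. NID1, the linker of laminin and type IV collagen, was 6.35 FPKM in siRNA embryos and 5.70 FPKM in sham embryos. AGRN, a heparan sulfate proteoglycan that binds laminin and dystroglycan, was 8.94 FPKM in siRNA embryos and 15.5 FPKM in sham embryos, 1.73-fold lower after siRNA injection. HSPG2, the perlecan gene, was 0.147 FPKM in siRNA embryos and 0.269 FPKM in sham embryos, so that agrin was 60.9 times as high as perlecan in siRNA embryos and 57.6 times in sham embryos. DAG1, which encodes dystroglycan, was 0.201 FPKM in siRNA embryos and 0.904 FPKM in sham embryos, 4.51-fold lower at a level near the low end of the values.

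Type IV collagen differed in FPKM between its chains. COL4A1 (chromosome 12, 82702142 to 82833967) was the highest collagen in both pools, at 7.82 FPKM in siRNA embryos and 11.3 FPKM in sham embryos, a difference of -0.48 on the log2 scale after adding 1 FPKM. COL4A2, whose product joins COL4A1 chains in the common type IV trimer, was 0.573 FPKM in siRNA embryos and 0.205 FPKM in sham embryos. The 2 genes are neighbours on chromosome 12 with no listed locus between them. COL4A1 exceeded COL4A2 by 13.6 times in siRNA embryos and by 55.0 times in sham embryos. The remaining chains, of the type IV collagens of kidney and eye, were under 0.5 FPKM in both pools. COL4A5 was 0.429 FPKM in siRNA embryos and 0.348 FPKM in sham embryos, and its neighbour COL4A6 was 0.00988 FPKM in siRNA embryos and 0.0516 FPKM in sham embryos. COL4A3 was 0.0363 FPKM in siRNA embryos and 0.0383 FPKM in sham embryos, a ratio close to that of equal read numbers, and COL4A4, split over 3 loci in the authors' annotation, was listed at 0. Over the 6 chains, the sum was 8.87 FPKM in siRNA embryos and 11.9 FPKM in sham embryos.

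COL18A1, whose product is a basement membrane collagen that carries heparan sulfate and releases endostatin, had the lowest difference of all members with a mean of 1 FPKM or more. It was 1.15 FPKM in siRNA embryos and 3.08 FPKM in sham embryos, 2.67-fold lower as a ratio of FPKM and -0.92 on the log2 scale after adding 1 FPKM. COL15A1, the other collagen of its class, was 0.0659 FPKM in siRNA embryos and 0.00797 FPKM in sham embryos.

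**Figure D2:**
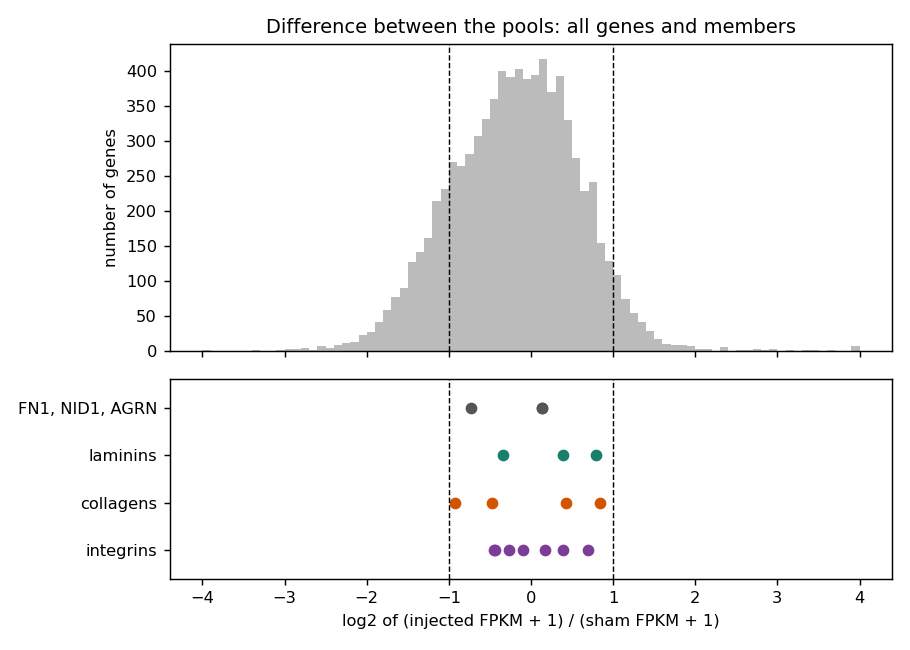
Number of genes (upper panel, vertical) by log2 difference between siRNA and sham embryos after adding 1 FPKM (horizontal, values beyond 4 drawn at 4), for the 7984 genes with a mean of 1 FPKM or more, and the differences of the 17 members of that mean by family (lower panel). Dashed lines mark 2-fold, and every member lies between them, from -0.92 to 0.84.

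FN1 was the most abundant member and the chains of its receptor the most abundant integrins. FN1 (chromosome 2, 108952790 to 109021955), the matrix glycoprotein that cells bind through its RGD motif, differed by 0.13 on the log2 scale between the pools. ITGA5 (chromosome 5, 28454966 to 28476008), the alpha chain of the main fibronectin receptor, was 13.7 FPKM in siRNA embryos and 19.0 FPKM in sham embryos. It differed by -0.44 on that scale, by -0.28 with the median difference set to 0 and by -0.069 at equal totals. ITGB1 (chromosome 13, 19237253 to 19279303), the beta chain shared by the fibronectin, collagen and laminin receptors, was 18.1 FPKM in siRNA embryos and 10.8 FPKM in sham embryos, a ratio of 1.67. The order of the 2 chains thus differed, since ITGB1 was 1.32 times ITGA5 in siRNA embryos and 0.569 times in sham embryos.

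ITGA2, the alpha chain of a collagen receptor with ITGB1, was 2.89 FPKM in siRNA embryos and 1.97 FPKM in sham embryos. The other collagen-binding alpha chains were low, with ITGA10 at 0.233 FPKM in siRNA embryos and 0.271 FPKM in sham embryos, ITGA11 listed at 0 in siRNA embryos and 0.0297 FPKM in sham embryos, and ITGA1, near ITGA2 on chromosome 20, listed at 0 in both. None of the 3 alpha chains of laminin receptors reached a mean of 1 FPKM. Of 7803 genes under that mean and above 0 in a pool, 4278 were lower in siRNA embryos, and so were these 3. ITGA7 was 0.105 FPKM there and 0.631 FPKM in sham embryos, ITGA3 was 0.0559 FPKM in siRNA embryos and 0.265 FPKM in sham embryos, and ITGA6 was 0.0900 FPKM in siRNA embryos and 0.178 FPKM in sham embryos. Together these 3 chains summed to 0.251 FPKM in siRNA embryos and 1.07 FPKM in sham embryos. ITGB4, the partner of ITGA6 in hemidesmosomes, was listed at 0 in both pools.

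Of the beta chains that pair with the alpha V chain, ITGB1 is given above, ITGB5 and ITGB3 were at about 1 to 2 FPKM, and ITGB6 and ITGB8 were near 0. ITGB5 was 1.23 FPKM in siRNA embryos and 2.06 FPKM in sham embryos, and ITGB3 was 1.02 FPKM in siRNA embryos and 1.17 FPKM in sham embryos, a difference of -0.10 on the log2 scale that turned to 0.11 at equal totals and 0.066 with the median difference set to 0. ITGAV, which encodes the alpha V chain, was 0.167 FPKM in siRNA embryos and 0.157 FPKM in sham embryos. ITGA2B, which pairs with ITGB3 in platelets, was 1.06 FPKM in siRNA embryos and 0.593 FPKM in sham embryos, just under the mean of 1 FPKM. ITGB6 and ITGB8 were listed at 0 in sham embryos and were 0.0309 and 0.0142 FPKM in siRNA embryos, and ITGA8 was 0.0137 FPKM in siRNA embryos and 0.0309 FPKM in sham embryos.

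Of the integrins best known from leukocytes, ITGAE was the highest. It was 6.76 FPKM in siRNA embryos and 5.92 FPKM in sham embryos, but its locus on chromosome 19 also holds GSG2, at 0.713 FPKM in siRNA embryos and 1.55 FPKM in sham embryos, and reads of overlapping genes may not be separable. ITGB7, the beta chain that pairs with it in lymphocytes, was 0.179 FPKM in siRNA embryos and 0.964 FPKM in sham embryos, 5.39-fold lower. ITGB2, the common beta chain of leukocyte integrins, was 1.18 FPKM in siRNA embryos and 1.63 FPKM in sham embryos. Its partners ITGAL and ITGAD were at 0 or at most 0.0366 FPKM, and the chain ITGA4 was listed at 0 in both pools. None of 7 leukocyte markers had a mean of 1 FPKM or more, and they summed to 0.670 FPKM in siRNA embryos and 1.23 FPKM in sham embryos, with CD3E and CD79A listed at 0 in both. ITGA9 was 0.256 FPKM in siRNA embryos and 0.116 FPKM in sham embryos. Summed over the family, integrins were 47.1 FPKM in siRNA embryos and 45.9 FPKM in sham embryos.

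COL12A1 and COL27A1 were the collagens outside basement membranes with a mean of 1 FPKM or more, and both were higher in siRNA embryos. Both reached 1 FPKM in siRNA embryos alone, so the mean filter favours this direction and it is no result about such collagens. COL9A2 and COL7A1 reached 1 FPKM in sham embryos alone, stayed under that mean and were lower in siRNA embryos. COL12A1 (chromosome 9, 14870436 to 14987822), a collagen that decorates the surface of fibrils, was 2.11 FPKM in siRNA embryos and 0.746 FPKM in sham embryos, 2.84-fold higher as a ratio of FPKM and 0.84 on the log2 scale after adding 1 FPKM. COL27A1, a fibrillar collagen of cartilage, was 1.42 FPKM in siRNA embryos and 0.809 FPKM in sham embryos. COL4A1, COL18A1, COL9A2 and COL7A1 were lower, while COL12A1 and COL27A1 were higher. The sum of all 38 collagens was 15.6 FPKM in siRNA embryos and 20.4 FPKM in sham embryos, a ratio of 0.765. That ratio became 1.01 with the totals of the pools made equal.

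**Figure D3:**
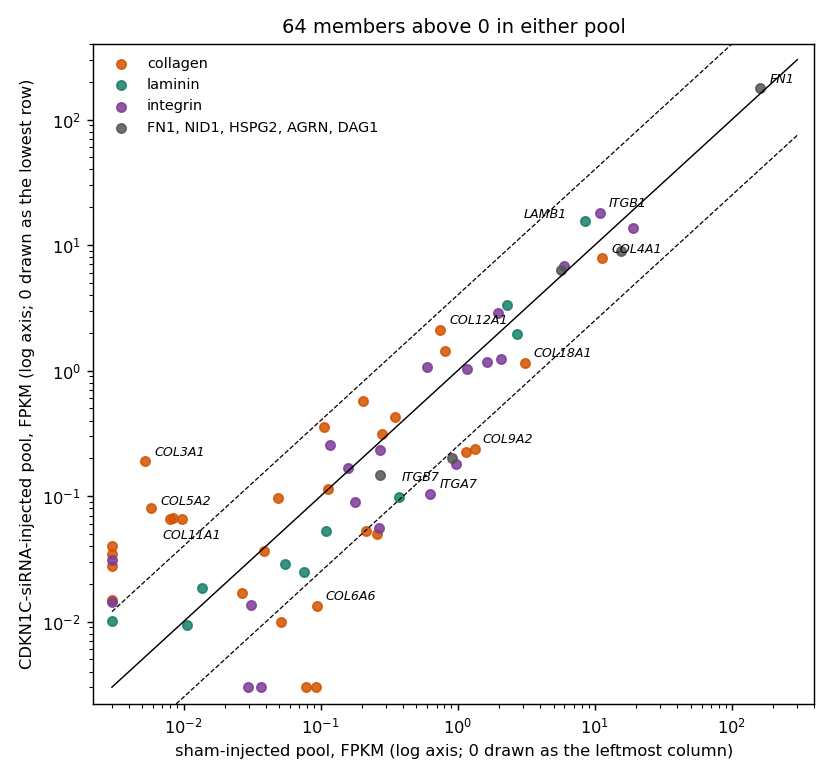
FPKM of the 64 members above 0 in at least 1 pool, in siRNA embryos (log scale, vertical) and sham embryos (log scale, horizontal), 1 library each, coloured by family; a value of 0 is drawn as the lowest row or leftmost column. Points on the solid line are equal in both pools, and dashed lines mark 4-fold. COL3A1, COL5A2 and COL11A1 lie above the upper dashed line with other collagens, while COL9A2, ITGB7 and ITGA7 lie below the lower dashed line.

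Below a mean of 1 FPKM, 47 members were above 0 in at least 1 pool, 22 of them higher in siRNA embryos and 25 lower, and 25 of the 47 were under 0.1 FPKM in both pools. Of 7 such members with at least 0.5 FPKM in one pool, 5 were at least 4-fold lower in siRNA embryos as a ratio of FPKM and none was 4-fold higher, beside 15.4% and 8.88% of the 1937 genes of that level. All 5 reached 0.5 FPKM in sham embryos alone, so the choice of this level favours such a difference and their count is no result about the members. These were DAG1, ITGB7 and ITGA7, given above, and the collagens COL9A2 and COL7A1. COL9A2, of cartilage fibrils, was 0.238 FPKM in siRNA embryos and 1.33 FPKM in sham embryos. COL7A1, which forms anchoring fibrils under epithelia, was 0.223 FPKM in siRNA embryos and 1.16 FPKM in sham embryos.

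Over 36 members under that mean and above 0 in both pools, 5 (13.9%) were at least 4-fold higher in siRNA embryos and 10 (27.8%) at least 4-fold lower, beside 7.78% and 9.91% of 5105 genes. All 5 that were higher are collagens, and they are singled out here after their values were seen. Collagens were also among the 10 that were lower, namely COL6A6, COL9A2, COL4A6, COL7A1, COL6A2 and COL22A1. COL3A1, the fibrillar collagen of soft connective tissue, was 0.190 FPKM in siRNA embryos and 0.00526 FPKM in sham embryos. COL5A2, its neighbour 5041 bases away on chromosome 2 and a partner in the same fibrils, was 0.0799 FPKM in siRNA embryos and 0.00583 FPKM in sham embryos. If the sham values stood for a single read each, the injected values would stand for about 39.9 reads of COL3A1 and 15.1 reads of COL5A2. COL11A1, a fibrillar collagen of cartilage, was 0.0673 FPKM in siRNA embryos and 0.00835 FPKM in sham embryos, COL24A1 was 0.0656 FPKM in siRNA embryos and 0.00972 FPKM in sham embryos, and the fifth was COL15A1. The locus of COL24A1 also holds LOC785006, which was 2.79 FPKM in siRNA embryos and 3.10 FPKM in sham embryos.

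No other fibrillar collagen among the members was 4-fold higher in siRNA embryos. COL1A1, COL5A1 and COL11A2 were listed at 0 in both pools and show no direction. COL1A1 shares its locus with LOC100849252, at 0.0950 FPKM in siRNA embryos and 0.0998 FPKM in sham embryos, and their reads may not be separable. COL27A1 was higher, as given above. COL5A3 and COL2A1 were listed at 0 in siRNA embryos and were 0.0924 and 0.0786 FPKM in sham embryos. Of 11 markers of mesenchyme and fibroblasts, 4 had a mean of 1 FPKM or more. All 4 were higher in siRNA embryos, against 41.7% of all genes. VIM, LUM and S100A4 were at least 2-fold higher after adding 1 FPKM, beside 4.92% of all genes, and ACTA2 was within 2-fold. Of 6 markers under that mean and above 0 in a pool, 3 were higher and 3 lower. The study also names LUM among the genes with the greatest differences between sham and siRNA embryos, so the difference of LUM is no independent evidence. The list summed to 84.4 FPKM in siRNA embryos and 31.2 FPKM in sham embryos. VIM, of the intermediate filament vimentin, was 18.5 FPKM in siRNA embryos and 1.46 FPKM in sham embryos, while PDGFRB was 0 FPKM in siRNA embryos and 0.0319 FPKM in sham embryos and FAP was listed at 0 in both. THY1 was 0.0532 FPKM in siRNA embryos and 0.111 FPKM in sham embryos, and TWIST1 was 0.139 FPKM in siRNA embryos and 0.238 FPKM in sham embryos. DCN, of the matrix proteoglycan decorin, was 0.653 FPKM in siRNA embryos and 0.0559 FPKM in sham embryos. POSTN and TAGLN were 0.0702 and 0.149 FPKM in siRNA embryos and were listed at 0 in sham embryos. The part of such cells in the collagen values was not tested.

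The microfibrillar and remaining collagens were low and went both ways. COL6A1 was 0.0972 FPKM in siRNA embryos and 0.0489 FPKM in sham embryos, while its partner chain and neighbour COL6A2 was 0.0499 FPKM in siRNA embryos and 0.258 FPKM in sham embryos, so that their order was opposite in the 2 pools. COL6A6, another chain of this type, was 0.0134 FPKM in siRNA embryos and 0.0935 FPKM in sham embryos, which would be 6.35 reads in sham embryos for each read in siRNA embryos. COL6A3, the third chain of the common type VI trimer, was 0.0169 FPKM in siRNA embryos and 0.0265 FPKM in sham embryos. COL9A3, a partner of COL9A2, was 0.352 FPKM in siRNA embryos and 0.106 FPKM in sham embryos, opposite to COL9A2. COL22A1 was 0.0528 FPKM in siRNA embryos and 0.215 FPKM in sham embryos, and COL21A1 and the transmembrane collagen COL23A1 were 0.114 and 0.312 FPKM in siRNA embryos, against 0.113 and 0.278 FPKM in sham embryos. COL8A1, COL10A1, COL13A1 and COL16A1 were listed at 0 in sham embryos and were at most 0.0402 FPKM in siRNA embryos. The locus of COL10A1 also holds NT5DC1, at 3.24 FPKM in siRNA embryos and 2.68 FPKM in sham embryos, and their reads may not be separable. COL8A2, COL9A1, COL19A1, COL20A1 and COL25A1 were listed at 0 in both pools.

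Lists of genes that act on or beside the members are given as counts to be read beside the shares over all genes, 4.92% higher and 15.7% lower by 2-fold or more as deposited, or 12.7% higher and 7.83% lower at equal totals. Of 12 collagen-modifying enzymes with a mean of 1 FPKM or more, 2 were at least 2-fold higher in siRNA embryos and 2 at least 2-fold lower after adding 1 FPKM, and these counts were the same at equal totals. PLOD2, a lysyl hydroxylase of collagen, was 2.56 FPKM in siRNA embryos and 0.170 FPKM in sham embryos. SERPINH1, the collagen chaperone of the endoplasmic reticulum, was 9.10 FPKM in siRNA embryos and 2.48 FPKM in sham embryos. On the lower side, PCOLCE, an enhancer of procollagen cleavage, was 3.30 FPKM in siRNA embryos and 11.0 FPKM in sham embryos, and the cyclophilin PPIB was 225 FPKM in siRNA embryos and 609 FPKM in sham embryos. PLOD3 was 4.37 FPKM in siRNA embryos and 8.16 FPKM in sham embryos, and P4HB, of prolyl hydroxylase, was 43.5 FPKM in siRNA embryos and 40.0 FPKM in sham embryos. The median difference of this list was -0.55 on the log2 scale.

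Of 5 other basement membrane and matrix proteins with a mean of 1 FPKM or more, 1 was at least 2-fold higher and none 2-fold lower, with a median of 0.0045. That gene was NID2, the second nidogen, at 16.1 FPKM in siRNA embryos and 3.42 FPKM in sham embryos, a difference of 1.95 on the log2 scale against 0.13 for NID1. NID2 and PLOD2 are also in a list that the study drew up from these pools, so their differences here are no independent evidence. FBLN2, a fibulin that binds basement membranes, was 53.4 FPKM in siRNA embryos and 94.2 FPKM in sham embryos, and TGFBI was 10.6 FPKM in siRNA embryos and 14.2 FPKM in sham embryos. SPP1, the integrin ligand osteopontin, was 2.76 FPKM in siRNA embryos and 1.39 FPKM in sham embryos, and SPARC was 50.0 FPKM in siRNA embryos and 49.8 FPKM in sham embryos.

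Among 11 other receptors for matrix, 1 was at least 2-fold higher and 3 were at least 2-fold lower, with a median difference of -0.30 as deposited. At equal totals 1 was higher and 2 were lower, RPSA no longer being among them, 7 of the 11 lay above 0 against 3 as deposited, and the median was 0.044. BCAM, which binds laminin alpha 5, was 0.313 FPKM in siRNA embryos and 3.28 FPKM in sham embryos. BSG, the immunoglobulin-like protein basigin, was 120 FPKM in siRNA embryos and 388 FPKM in sham embryos, and RPSA, a ribosomal protein that also serves as a laminin receptor, was 2004 FPKM in siRNA embryos and 4879 FPKM in sham embryos. The glypican GPC4 was higher, at 4.10 FPKM in siRNA embryos and 0.967 FPKM in sham embryos, and the syndecans SDC2 and SDC3 were 8.28 and 2.97 FPKM in siRNA embryos, against 6.54 and 2.43 FPKM in sham embryos.

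On the inner side of integrins, 0 of 19 adhesion genes with a mean of 1 FPKM or more were at least 2-fold higher and 3 were at least 2-fold lower, with a median of 0.057, shares near those of all genes as deposited. At equal totals 2 were higher, TLN1 and CRK, and 2 were lower, BCAR1 no longer being among them. Talin and its partners were present, with TLN1 at 4.26 FPKM in siRNA embryos and 2.23 FPKM in sham embryos, and the focal adhesion kinase PTK2 at 6.93 FPKM in siRNA embryos and 4.18 FPKM in sham embryos. CRK, an adaptor of adhesion signalling, was 5.09 FPKM in siRNA embryos and 2.17 FPKM in sham embryos. ILK and LIMS2, of the kinase and adaptor complex that binds beta chains, were 3.15 and 0.106 FPKM in siRNA embryos, against 11.5 and 3.03 FPKM in sham embryos. BCAR1, a docking protein of focal adhesions, was 2.35 FPKM in siRNA embryos and 6.52 FPKM in sham embryos. Paxillin, PXN, and the kinases SRC and PTK2B were listed at 0 in both pools.

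Genes of the dystroglycan complex and its sugar chains had a median difference of -0.65, with 2 of 10 at least 2-fold lower in siRNA embryos and none 2-fold higher as deposited. At equal totals 2 were at least 2-fold higher, UTRN and DPM1, and 1 was lower, POMT2. Of the 10, 3 lay above 0 both as deposited and at equal totals, where the median was -0.36 against 0.16 for all genes. POMT2, of the first step of dystroglycan mannosylation, was 0.593 FPKM in siRNA embryos and 2.58 FPKM in sham embryos, and DPM2 was 33.9 FPKM in siRNA embryos and 76.3 FPKM in sham embryos. UTRN, the utrophin gene, was 2.42 FPKM in siRNA embryos and 0.751 FPKM in sham embryos, DPM1 was 84.4 FPKM in siRNA embryos and 50.1 FPKM in sham embryos, and POMGNT1 was 4.39 FPKM in siRNA embryos and 3.16 FPKM in sham embryos. SNTB2, a syntrophin, was 10.7 FPKM in siRNA embryos and 22.0 FPKM in sham embryos.

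**Figure D4:**
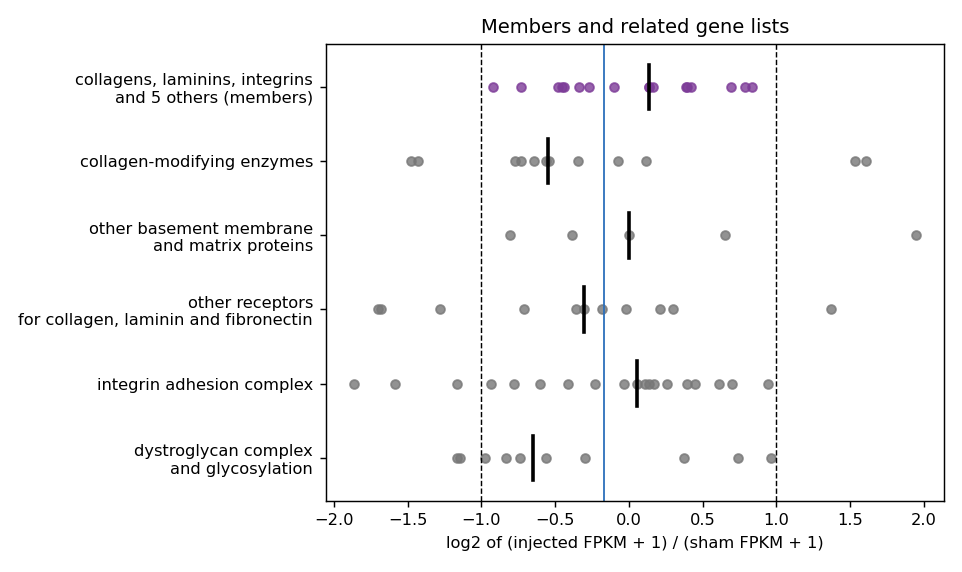
Log2 difference between siRNA and sham embryos after adding 1 FPKM (horizontal) for the 17 members (purple) and for 5 lists of related genes (grey) with a mean of 1 FPKM or more, 1 point a gene, with a black bar at each median. The blue line marks the median of all genes, -0.17, and the dashed lines 2-fold on the values as deposited, where 20.6% of all genes lie beyond 2-fold. At equal totals 3 members lie beyond 2-fold.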

How the data were processed

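Amplified RNA of both embryo pools was sequenced. The authors aligned reads with TopHat to bosTau7 and deposited FPKM values from Cufflinks 2.0.2, with upper-quartile scaling and correction of sequence bias. The annotation is not given in the sources used here, and genes that overlap share a locus in the files. Of 22220 loci, 615 without a symbol were left out, and loci of the same symbol were summed. Differences were log2 of the injected over the sham value, each with 1 FPKM added, for genes whose mean reached 1 FPKM. No test was run, since each group is 1 library. Every member of that mean is named, as are lower members with at least 0.5 FPKM in a pool and a 4-fold ratio, and the 3 highest and 3 lowest genes of each related list. The members and lists were chosen with earlier results of these data known. The size rule was tested on simulated data. Alternatives were another pseudocount, filter, fold, scaling or locus choice, and removal of the trend with locus length by loess (span 0.3). No sequences were used. Some members are not reported here by name. Figures were drawn with matplotlib 3.10.9, and tables computed with NumPy 2.4.6, pandas 2.3.3 and statsmodels 0.14.6 under Python 3.11.15.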

Additional observations from a re-analysis of the deposited data

How the results depend on the processing

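Single libraries and unknown read numbers limit every value here, and the lowest values may rest on few reads. Of the 17 members with a mean of 1 FPKM or more, 16 kept the sign of their difference at equal totals and with the median difference set to 0, ITGB3 being the exception, and all that could be computed kept it under the other alternatives. No member was 2-fold apart with a pseudocount of 5, a mean of 5 FPKM or more, no filter, the highest locus or a fold of 4. With a pseudocount of 0.1, 1 member was higher (COL12A1) and 1 lower (COL18A1), as with no pseudocount, a choice made after seeing the data, at 1 and 1. With the median difference set to 0, 1 was higher (COL12A1), at equal totals 3, and after the loess fit 1 was lower (COL18A1). At a fold of 1.5, 3 were higher (COL12A1, ITGB1, LAMB1) and 2 lower (AGRN, COL18A1). The median difference of all members, 0.13, was 0.30 with the median set to 0, 0.48 at equal totals, 0.030 after the loess fit and -0.0023 with no filter. For collagens it was -0.029, and 0.11 with a pseudocount of 0.1, -0.48 at a mean of 5 FPKM or more, 0.14 with the median set to 0 and 0.27 at equal totals. For laminins it was 0.39, and 0.52 with a pseudocount of 0.1, 0.19 with one of 5, 0.79 at a mean of 5 FPKM or more, -0.019 with no filter, 0.56 with the median set to 0 and 0.71 at equal totals. For integrins it was -0.10, and 0.16 at a mean of 5 FPKM or more, 0.066 with the median set to 0 and 0.11 at equal totals. Summed FPKM of the injected over the sham pool, 0.765 for collagens, 1.48 for laminins and 1.03 for integrins, was 1.01, 1.95 and 1.35 at equal totals. For the related lists, equal totals were tried after seeing the data: adhesion genes then had 2 higher in place of 0 and 2 lower in place of 3, dystroglycan genes 2 higher in place of 0 and 1 lower in place of 2, and the other 3 lists kept their counts but for 2 lower receptors in place of 3. The cause of these shifts beyond the change of scale or genes was not tested. No paired analysis was possible because each group is 1 pool without a replicate number.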

Other observations

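Some symbols begin like integrin chains but name other proteins, and they were kept out of the members. ITGB1BP1, which binds the tail of the beta 1 chain and restrains its activation, was 65.5 FPKM in siRNA embryos and 67.0 FPKM in sham embryos, a difference of -0.032 on the log2 scale after adding 1 FPKM. ITGB3BP, a centromere protein that was named for binding the beta 3 chain, was 5.25 FPKM in siRNA embryos and 8.49 FPKM in sham embryos. ITGB1BP2 was 0.0496 FPKM in siRNA embryos and 0.512 FPKM in sham embryos, and ITGB1BP3 and ITGBL1 were listed at 0 in both pools.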
